A study of Mus musculus with 2 samples.

Results

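Goblet cell mucus proteins are the secreted products with which goblet cells, the mucus-secreting cells of the intestinal epithelium, build and maintain the mucus layer. Their genes were followed in mouse intestinal organoids (mIOs) with and without dextran sulfate sodium (DSS), a polysaccharide used to injure the gut lining and so to model intestinal inflammation. The members were 10 genes, chosen with earlier results of these data known: Muc2, Clca1, Zg16, Fcgbp, Tff3, Agr2, Spink4, Klk1, Capn9 and Fam3d. Of these, 9 were found by symbol among the 19294 genes of the count table, under the NCBI gene identifiers 17831 (Muc2), 23844 (Clca1), 69036 (Zg16), 215384 (Fcgbp), 21786 (Tff3), 23795 (Agr2), 20731 (Spink4), 16612 (Klk1) and 73647 (Capn9). Fam3d is not listed under that symbol, but RefSeq gives it as a synonym of Oit1 (gene identifier 18300), which is listed, so Oit1 is described beside the 9 members and is not counted with them.

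The data comprised 1 control library and 1 DSS library, both labelled day 4. The organoids of both groups came from jejunal crypts of Lgr5-EGFP-IRES-creERT2 mice, in which a cassette at the Lgr5 locus drives EGFP and an inducible Cre in stem cells, and were kept in Matrigel with EGF, Noggin and R-spondin. The DSS group was treated for 4 days, and the concentration used for sequencing is not given in the sources used here. Organoids of this kind hold epithelial cells without the surrounding tissue, and the labels give the cell type as intestinal stem cells. With 1 library per group there is no spread between cultures, and no test was made. Every interval printed is a 95% interval that covers counting error only. These are exact Clopper-Pearson intervals, except the Woolf intervals of differences between members, which are approximate.

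Goblet cells pack MUC2, a gel-forming mucin whose long chains of threonine, serine and proline carry O-linked sugars, into granules and release it at the apical side, where it swells into a net. Other granule proteins act on or join this net: FCGBP is bound to it, the metalloprotease CLCA1 cuts MUC2, the lectin ZG16 binds Gram-positive bacteria, and the trefoil peptide TFF3 takes part in epithelial repair. AGR2 is a disulfide isomerase of the endoplasmic reticulum (ER) on which MUC2 production depends. In the small intestine goblet cells share their secretory origin with Paneth and enteroendocrine cells.

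Total counts were 65493032 for the control and 59746968 for the DSS library, and the 10 most abundant genes, none of them a member, took 8.33% and 12.2% of these. Since the smallest count of either library was 1, a gene with 0 counts in one of them is not in the table. A minimum of 10 counts in either library was met by 17235 genes, which are called all genes below, with a median log2 ratio of -0.06 after scaling with TMM factors, a scaling that sets the bulk of genes near equality. Levels are given as CPM, the count per 1000000 counts of the scaled library size. On total counts alone, all log2 ratios were lower by 0.26.

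Mucus gene reads were far more abundant in the DSS library. The 9 members together had 61954 counts in the control library and 640592 in the DSS library, or 0.0946% and 1.07% of all counts. This was 866 CPM against 11717 CPM and thus 13.5-fold (log2 ratio 3.76, interval 3.75 to 3.77). All 9 members had a log2 ratio above 0 (8 on total counts), against 48% of all genes. For 7 of them it reached 2, the line used here to count genes by size, which 7.87% of all genes reached. A log2 ratio of 1 was reached by 8 members and 19.3% of all genes, and one of 3 by 5 members and 3.06% of all genes. The median log2 ratio of the members was 3.77, and their ratios ran from 0.15 for Klk1 to 9.29 for Clca1. Spink4 and Klk1 were the members below the line. A higher level in a bulk library can come from more cells of a type or from more RNA per cell, and these cannot be told apart.

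**Figure D1:**
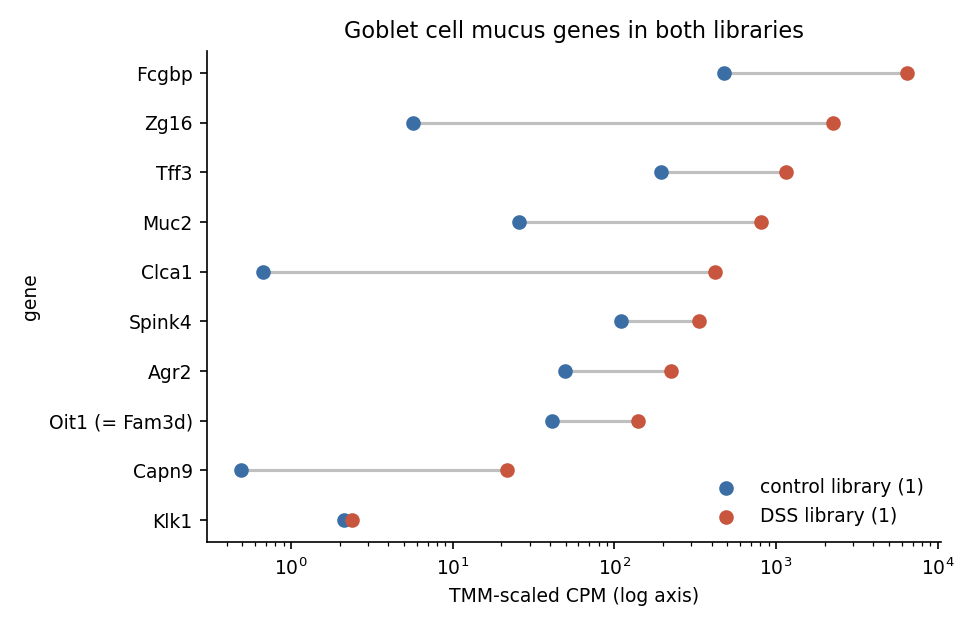
Level of each mucus gene in CPM (log axis) in the control library (blue) and the DSS library (red), 1 library each and no error bar. The grey line joins the values of 1 gene, which are far apart for Zg16 and Clca1 and almost coincide for Klk1.

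Among the structural proteins of the mucus, Muc2, the gel-forming mucin, was counted 1848 times in the control library and 44422 times in the DSS library. This was 25.8 CPM against 812 CPM, or 31.5-fold (log2 ratio 4.98, interval 4.91 to 5.04). By RT-PCR, in contrast, the paper reports Muc2 at a similar level in DSS-treated organoids. The reason for this difference was not tested. Fcgbp, the mucus protein bound to MUC2, went from 34003 to 354985 counts. Its level was 475 CPM in the control library and 6493 CPM in the DSS library (log2 ratio 3.77, interval 3.76 to 3.79). Fcgbp alone held 0.594% of all counts of the DSS library. Part of the Fcgbp transcript is also found in the neighbouring gene 9530053A07Rik, which shares 8.55% of its 50-base windows, and how the authors counted reads with several matches is not given in the sources used here. No 50-base window of Muc2, Clca1, Zg16, Tff3, Agr2, Spink4, Capn9 or Oit1 was found in another gene.

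The highest ratios were those of the proteins that act on the mucus or on bacteria in it. Clca1, the protease that cuts MUC2, had 48 counts in the control library and 23033 in the DSS library. Its level went from 0.671 CPM to 421 CPM (log2 ratio 9.29, interval 8.89 to 9.74). Zg16, the bacteria-binding lectin, had 406 and 123503 counts, or 5.67 and 2259 CPM. Its log2 ratio was 8.64, with an interval from 8.50 to 8.78. Clca1 ranked 1 and Zg16 ranked 2 by ratio among the 17235 genes. Both were low in the control library and well counted in the DSS library.

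The small secreted proteins had lower ratios than Muc2. Tff3, the trefoil peptide, had 14008 and 62876 counts, or 196 and 1150 CPM (log2 ratio 2.55, interval 2.53 to 2.58). Spink4, a Kazal-type protease inhibitor, had 7882 and 18210 counts, or 110 and 333 CPM (log2 ratio 1.60, interval 1.56 to 1.63). Both were already well counted in the control library, unlike Clca1 and Zg16. Klk1, a tissue kallikrein, is a secreted serine protease that releases kinins. It had 153 and 130 counts, or 2.14 and 2.38 CPM. Its log2 ratio of 0.15 had an interval from -0.20 to 0.50, which includes 0, so no difference in Klk1 was detectable at this depth. On total counts it was -0.10. Klk1 shares 28.4% of its 50-base windows with other genes, mostly of the Klk1b group, so its counts are uncertain.

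The members that act inside the cell differed from each other as well. Agr2, the ER isomerase needed for MUC2, had 3571 and 12239 counts, or 49.9 and 224 CPM. Its log2 ratio was 2.17, with an interval from 2.11 to 2.22, and was 1.91 on total counts, below the line of 2. Capn9, a calcium-dependent cysteine protease of the digestive tract, had 35 and 1194 counts, or 0.489 and 21.8 CPM. Its log2 ratio of 5.48 had an interval from 4.997 to 6.01, the widest of the members past the line. Oit1, listed by RefSeq as Fam3d as well, encodes a secreted protein of the FAM3 family. It had 2931 and 7681 counts, or 41.0 and 140 CPM (log2 ratio 1.78, interval 1.72 to 1.84). With Oit1 added, 7 of 10 genes were at the line or above it, and the median log2 ratio was 3.16.

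**Figure D2:**
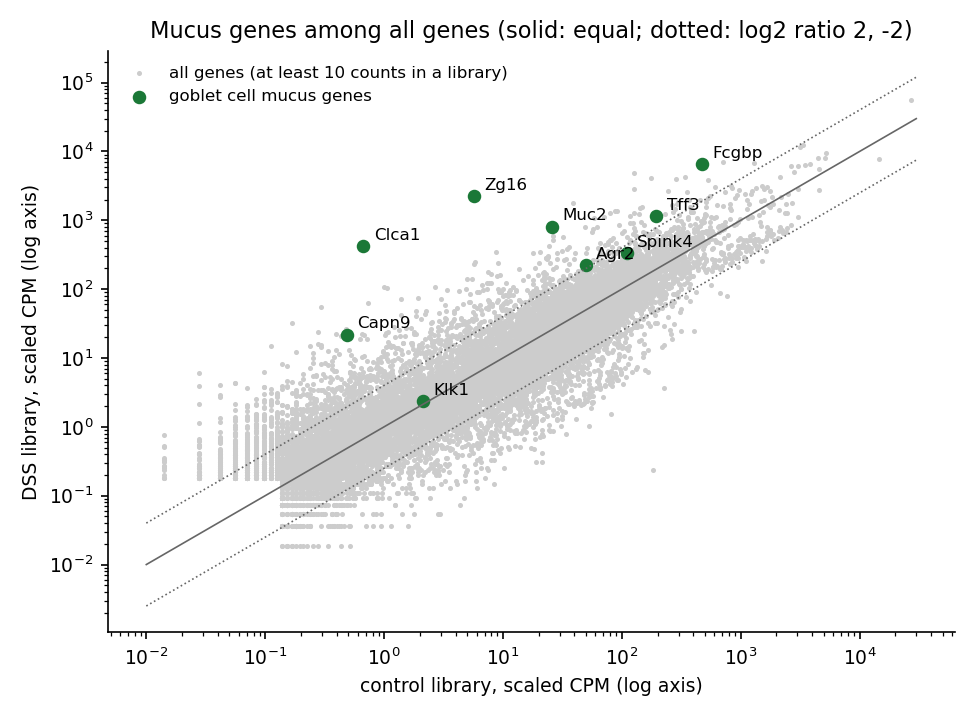
Level of all 17235 genes that met the count minimum, control against DSS, in CPM on log axes, with the 9 members in green. The solid line marks equal levels and the dotted lines log2 ratios of 2 and -2. Clca1 and Zg16 lie furthest above the solid line and Klk1 lies on it.

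RefSeq start-site windows (build GRCm38.p6) were at hand for Muc2, Fcgbp, Agr2, Klk1, Capn9 and Oit1. The 250 bases before the start are printed for 4 members to set side by side genes that were much higher in the DSS library and Klk1, which was not. They are Muc2 at chr7:141690090-141690339, Fcgbp at chr7:28070986-28071235, Capn9 at chr8:124575861-124576110 and Klk1 at chr7:44225110-44225359, all on the plus strand. Capitals mark matches, on either strand, to the TATA-box letters TATAAA, to CAGCTG (an E-box that ATOH1 and related factors can bind), to TTTATG (a motif of CDX2), to TGTTTAC (a motif of forkhead factors) or to ATCCGG (an ETS-type motif).
Muc2: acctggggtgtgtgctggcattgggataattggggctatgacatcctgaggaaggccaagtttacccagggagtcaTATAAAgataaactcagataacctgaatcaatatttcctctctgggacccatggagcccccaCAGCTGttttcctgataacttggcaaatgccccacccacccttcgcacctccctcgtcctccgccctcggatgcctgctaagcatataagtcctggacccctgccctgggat
Fcgbp: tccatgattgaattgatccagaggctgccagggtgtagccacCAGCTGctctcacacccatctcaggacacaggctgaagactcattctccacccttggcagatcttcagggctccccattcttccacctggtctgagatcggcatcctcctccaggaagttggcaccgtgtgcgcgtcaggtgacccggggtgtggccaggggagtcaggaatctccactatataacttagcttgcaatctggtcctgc
Capn9: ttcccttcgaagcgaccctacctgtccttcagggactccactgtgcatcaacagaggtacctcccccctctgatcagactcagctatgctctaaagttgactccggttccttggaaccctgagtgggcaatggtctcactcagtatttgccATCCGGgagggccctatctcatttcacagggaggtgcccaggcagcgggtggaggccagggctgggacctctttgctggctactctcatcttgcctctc
Klk1: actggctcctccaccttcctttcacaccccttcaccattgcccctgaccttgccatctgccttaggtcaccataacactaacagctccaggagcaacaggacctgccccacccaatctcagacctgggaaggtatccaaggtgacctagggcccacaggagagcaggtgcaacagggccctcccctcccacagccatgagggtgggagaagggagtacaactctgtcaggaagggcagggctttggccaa
The E-box letters stood in the windows of Muc2, Fcgbp and Oit1, that is in 3 of 6. Of the 32851 windows of 27025 annotated genes, taken without a count minimum and called all windows here, 13.0% held them. The E-box letters began at position -112 in Muc2 and -208 in Fcgbp, counted from the start site. The TATA letters were in the Muc2 window at -174 and in 12.4% of all windows. Only exact matches to TATAAA were searched. Similar letters, such as tataag near the end of the Muc2 window and tataac near that of Fcgbp, are therefore not marked. The ETS-type letters were in that of Capn9 and in 4.94% of all windows, and the CDX2 letters in those of Agr2 and Oit1 and in 10.8%. None of the 6 windows held the forkhead letters, which were in 3.17% of all windows. A shorter motif of KLF factors, CACCC, not shown in capitals, was in 5 of 6 windows, Klk1 included, and in 52.0% of all windows. These matches describe letters in the windows and are not evidence of binding.

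The members also differed from each other, and such differences do not depend on how the libraries are scaled. In all 36 pairs of members the interval of the difference between the log2 ratios (Woolf, from the 4 counts) lay on 1 side of 0. The closest to 0 was that of Capn9 over Muc2, at 0.51 (interval 0.016 to 0.99). The ratio of Clca1 was above that of Muc2 by 4.32 on the log2 scale (interval 3.91 to 4.73). Zg16 was 3.66 above Muc2, with an interval from 3.51 to 3.82. Muc2 was 1.20 above Fcgbp, with an interval from 1.13 to 1.27, and 2.81 above Agr2, with an interval from 2.72 to 2.90. Thus, relative to the mucin itself, the DSS library held more Clca1 and Zg16 and fewer Fcgbp, Tff3, Agr2 and Spink4 transcripts than the control library.

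The make-up of the mucus gene reads changed accordingly. Fcgbp held 54.9% of the summed counts of the 9 members in the control library and 55.4% in the DSS library. Zg16 went from 0.655% to 19.3% and Clca1 from 0.0775% to 3.60%. The share of Tff3 went from 22.6% to 9.82%, that of Spink4 from 12.7% to 2.84% and that of Agr2 from 5.76% to 1.91%. Muc2 held 2.98% and 6.93%. Without Fcgbp, the log2 ratio of the summed counts was 3.74, close to that with it.

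**Figure D3:**
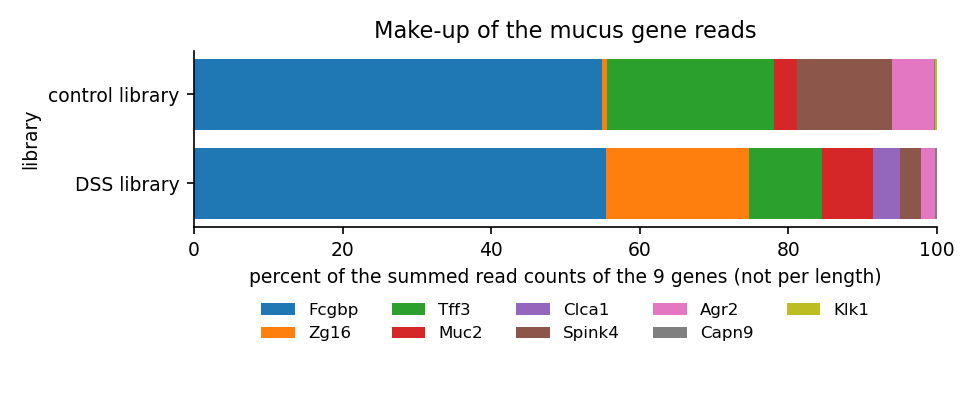
Percent of the summed read counts of the 9 members held by each gene, in the control library (top) and the DSS library (bottom), not corrected for length. The Fcgbp share is 54.9% and 55.4%, whereas Zg16 widens from 0.655% to 19.3% and Tff3 and Spink4 narrow.

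Levels of different genes can be compared per length only, and are given here as CPM per kilobase (kb) of the longest annotated transcript in GENCODE vM21. In the control library the order was Tff3 (397 CPM per kb), Spink4 (277), Fcgbp (59.9), Agr2 (55.0), Muc2 (8.82), Zg16 (7.85), Klk1 (2.24), Capn9 (0.210) and Clca1 (0.183). Capn9 and Clca1 did not differ there beyond counting error, with a ratio of levels of 1.14 and an interval from 0.718 to 1.81. In the DSS library it was Zg16 (3124 CPM per kb), Tff3 (2333), Spink4 (839), Fcgbp (819), Muc2 (278), Agr2 (247), Clca1 (115), Capn9 (9.37) and Klk1 (2.49). Zg16 thus moved from below Agr2 to the top of the order, and Clca1 from the bottom to a place above Capn9.

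The places of close neighbours in this order rest on the length used. Muc2 is annotated in fragments, with a longest transcript of 2926 bases but 7127 bases of annotated exons in all. With the latter its level in the DSS library was 114 CPM per kb, below the 173 of Agr2. Whether the annotated exons cover the whole Muc2 transcript was not checked, so its levels per length and its place in the order are uncertain. With exon lengths Zg16, at 1797 CPM per kb, was below Tff3, at 2333, in the DSS library, and Muc2, at 3.62, was below Zg16, at 4.51, in the control library. Fcgbp and Agr2 changed places in the control library with the mean length of coding transcripts, at 59.9 and 63.6 CPM per kb.

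Relatives of the members that are not goblet mucus proteins were listed by family, without Muc6, Tff2 and 9530053A07Rik, which are described elsewhere. In the CLCA, AGR, SPINK, CAPN and FAM3 families, 15 of these relatives met the count minimum. Of these, 11 were above 0 and 5 reached a log2 ratio of 2, against 48% and 7.87% of all genes, while 3 were at -2 or less, against 6.54% of all genes. Their median log2 ratio was 1.31, and on total counts 9 were above 0. The CLCA family was split. Clca4b, an epithelial relative of Clca1, had 5701 and 69604 counts (log2 ratio 4.00, interval 3.96 to 4.04). Clca4a had 147 and 2013 counts (log2 ratio 4.16, interval 3.92 to 4.42). The relatives Clca3a1, Clca3a2 and Clca3b lay in the opposite direction.

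Clca3b had 11967 counts in the control library and 339 in the DSS library (log2 ratio -4.75, interval -4.91 to -4.60). Clca3a1 had 828 and 61 counts (-3.37, interval -3.77 to -2.998), and Clca3a2 had 681 and 57 counts (-3.19, interval -3.61 to -2.80). In the RefSeq order of chromosome 3 the genes stand as Clca3a1, Clca3a2, Clca3b, Clca4b, Clca4a and Clca1, so the 3 genes at one end were lower and the 3 at the other were higher in the DSS library. As a sum, the first 3 had 13476 and 457 counts, a log2 ratio of -4.49, and the last 3 had 5896 and 94650 counts, a log2 ratio of 4.39. Clca3 is an older name of the goblet cell gene Clca1 and does not refer to the Clca3a genes or Clca3b. Clca4a shares 37.1% of its 50-base windows and Clca4b 24.8% with each other or with a pseudogene, and Clca3a1 shares 24.8% and Clca3a2 26.5%, mainly with each other. Their separate values are uncertain, while the sums do not change with reads placed on the wrong one of the 3 genes summed.

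In the other families the member did not always have the highest ratio. Agr3, the close relative of Agr2, was at a log2 ratio of 1.53 (79 and 174 counts), and Txndc12, a more distant ER thioredoxin-like protein, at -0.80 (2590 and 1134 counts). Spink1, a trypsin inhibitor, was at 3.74 (530 and 5414 counts), above Spink4. Capn8, a gastrointestinal calpain that pairs with Capn9, was at 2.72 (134 and 673 counts), while the widely expressed calpains Capn2, Capn1 and Capn5 were at 1.31, 0.50 and 0.09. In the FAM3 family, Fam3b was at 4.09 (524 and 6824 counts), Fam3c at 1.54 and Fam3a at 0.15, beside 1.78 for Oit1. Among the Klk1b genes Klk1b21 was listed, with 5 and 2 counts, and Spink2 had 2 counts in both libraries.

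**Figure D4:**
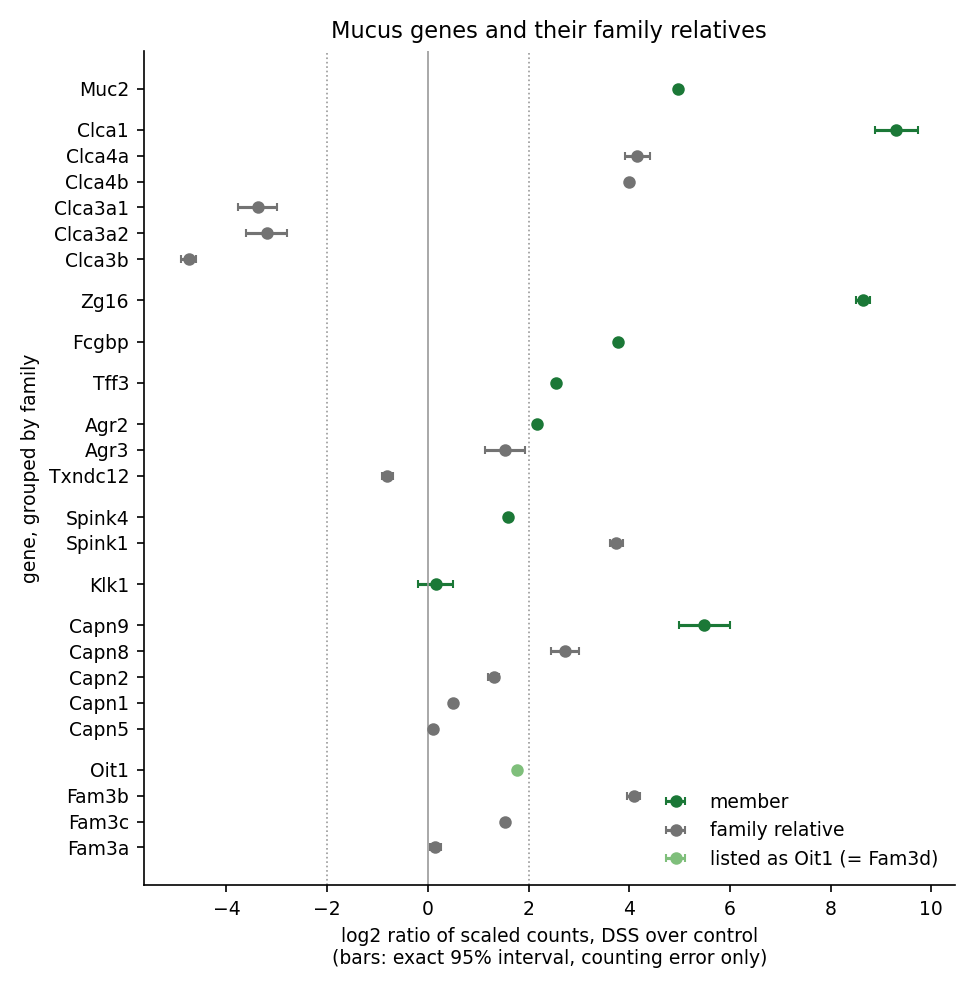
Log2 ratio of scaled counts, DSS over control, for the 9 members (dark green), Oit1 (light green) and 15 family relatives (grey), with exact 95% intervals for counting error. Dotted lines mark 2 and -2. Clca3a1, Clca3a2 and Clca3b lie below -2 whereas Clca1, Clca4a and Clca4b lie above 2.

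The genes that make and release mucus were described in lists, to be read against the 48% of all genes above 0, the 52% below 0 and the 7.87% at the line or above it. Of 9 transcription factors of goblet cell fate, 7 were above 0 and 2 at the line or above it, with a median log2 ratio of 0.91. With total counts 6 of them were above 0 and the median was 0.65. Atoh1, which commits cells to the secretory lineage, had 89 and 647 counts (log2 ratio 3.25, interval 2.93 to 3.59). Spdef, which drives goblet cell maturation, had 245 and 1007 counts (log2 ratio 2.43, interval 2.22 to 2.64). Klf4, a factor of goblet and other differentiated epithelial cells, was at 1.47, with 4653 and 9829 counts. The forkhead factors Foxa1 and Foxa2 were the 2 below 0, at -0.66 and -0.38. All 13 listed genes among 15 other goblet cell genes were above 0, and 7 were at the line or above it, with a median of 2.004. On total counts 12 were above 0, 6 were at the line or above it and the median was 1.75. Rep15, a RAB15 effector, was the highest at 5.54 from 18 control counts, followed by Bcas1 at 5.29 (138 and 4116 counts) and the actin-severing protein Scin at 4.73 (648 and 13099 counts).

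Of 18 genes of folding and export from the ER, 12 were below 0, where 52% of all genes lay, and 6 above 0. The median log2 ratio was -0.31, and on total counts it was -0.57 with 3 genes above 0. Ern2, the IRE1β stress sensor of mucus-producing epithelia, was the single gene at the line or above it, with 316 and 1150 counts and a log2 ratio of 2.25, which was below 2 on total counts. Fkbp11, an ER prolyl isomerase, was at -2.36 (913 and 136 counts), and the disulfide isomerase Pdia5 at -1.53 (910 and 241 counts). The general chaperone Hspa5 was at 0.01 and the ER stress factor Xbp1 at -0.02, against 2.17 for Agr2. Neither has a firm direction, since Hspa5 was at -0.24 on total counts and Xbp1 at 0.07 with upper quartile factors.

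Of 22 genes of mucin O-glycosylation, 17 were above 0 and 5 at the line or above it, against 48% and 7.87% of all genes, with a median log2 ratio of 0.47 that was 0.21 on total counts. St6galnac1 was the 1 gene at -2 or less, where 6.54% of all genes lay. It had 18 and 3 counts (log2 ratio -2.20, interval -4.60 to -0.42). The core branching enzymes Gcnt1 and Gcnt3 were at 2.96 (65 and 386 counts) and 2.83 (1661 and 9033 counts), and the sulfotransferase Chst4 was at 2.85 (142 and 782 counts). In granule transport and exocytosis, 11 of 14 genes were above 0, with a median of 0.54. On total counts 9 were above 0 and the median was 0.29. The genes at the line or above it were Sytl2 at 3.62 (279 and 2622 counts) and its partner Rab27a at 3.24 (280 and 2014 counts), both of the complex that tethers secretory granules, and Rab27b was at 1.19. Among other secreted mucins and trefoil factors, Muc5ac, Muc5b, Muc19 and Tff1 were not listed. Muc6 had 10 and 33 counts, and Tff2 was lower in the DSS library, with 176 and 67 counts (log2 ratio -1.005).

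**Figure D5:**
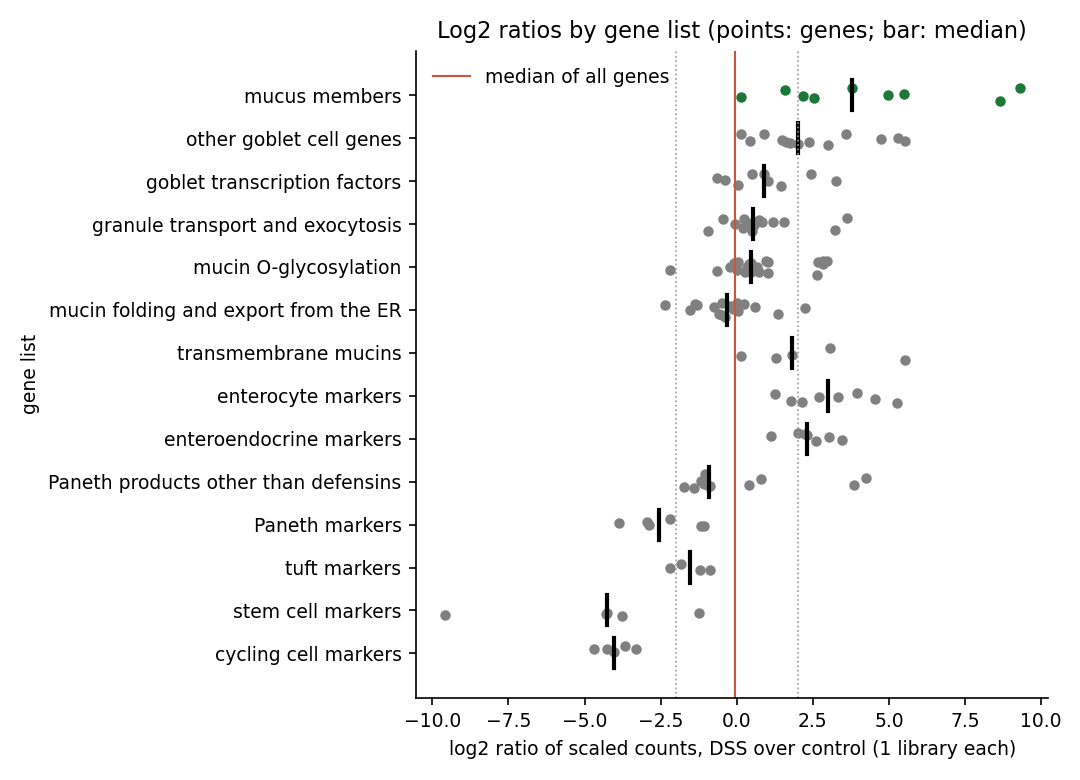
Log2 ratio of scaled counts, DSS over control, for the genes of each list (points, spread vertically at random) with the list's median (black bar) and the median of all genes (red line at -0.06). The members have the highest median, 3.77, ahead of 3.01 for the enterocyte markers, whereas the ER list has a median of -0.31.

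Transmembrane mucins, which stay anchored on the apical surface mainly of enterocytes, differed among themselves. Of the 5 that met the count minimum, 2 were at the line or above it, against 7.87% of all genes. The median log2 ratio of the 5 was 1.82. Muc3 had 2797 and 97996 counts (log2 ratio 5.52, interval 5.47 to 5.57), above that of Muc2. Muc3a was at 3.05 (403 and 2548 counts) and Muc13 at 1.82 (52419 and 141277 counts). Muc20, at 0.14 with 19 and 16 counts, had an interval from -0.92 to 1.18, so no difference was detectable at this depth, and it was at -0.12 on total counts. Muc1 was below the count minimum, with 9 and 5 counts. Of 11 Paneth cell products other than defensins, 7 were below 0, against 52% of all genes, and the median was -0.92. Pnliprp2, a pancreatic-type lipase, at 4.24 and Reg3a, an antimicrobial lectin, at 3.84 were the 2 at the line or above it, and Habp2 was the lowest at -1.73.

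Markers of other cell types moved between the libraries beside the mucus genes. Their counts are to be read against the 48% of all genes above 0 and the 52% below 0. All 8 enterocyte markers were above 0, with a median log2 ratio of 3.01 and a level that summed to 2009 CPM without DSS and 20295 CPM with it. All 7 enteroendocrine markers were above 0, with a median of 2.30 and a summed level of 835 and 4283 CPM. Vil1, an enterocyte marker, was at 1.25 and Chga, an enteroendocrine marker, at 2.60. By RT-PCR the paper reports Vil1 and Chga at similar levels in DSS-treated organoids, but Lgr5 and Lyz as decreased. In the counts Lgr5, a stem cell marker, was at -3.78 and Lyz1, a Paneth cell marker, at -1.06. The RT-PCR values are relative expression, with Gapdh among the primers, whereas these are TMM-scaled counts. The reasons for the differences for Vil1 and Chga were not tested. The Paneth cell markers were all below 0 (6 genes, median -2.54, 831 and 207 CPM), as were the tuft cell markers (4 genes, -1.52, 7.08 and 2.62 CPM), the stem cell markers (5 genes, -4.26, 832 and 130 CPM) and the cycling cell markers (5 genes, -4.02, 990 and 67.8 CPM). Gfi1b was the tuft cell marker not listed. Of the gastric mucous cell markers Muc5ac, Tff1, Gkn1 and Gkn2 were not listed, and the 2 listed genes summed to 2.60 and 1.83 CPM. The mesenchymal markers summed to 0.447 and 0.567 CPM, with Col1a2, Col3a1 and Dcn not listed, and the immune markers to 2.65 and 4.52 CPM, with Ptprc, Cd3e and Itgax not listed. The part of these shifts in the values of the mucus genes was not tested.

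The genes whose levels were nearest to those of Muc2 in both libraries were Apoc3, Mme, Reg1, Gsta2 and Adh6a, among 13202 genes that reached 100 counts in either library. The distance, taken over the log2 CPM of the 2 libraries, was 0.45 for Apoc3, with 1885 and 32464 counts, and 0.95 for Adh6a, with 1743 and 23075 counts. With 2 libraries this likeness rests on 2 values a gene. No other member was among the 5 nearest.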

How the data were processed

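Poly(A) RNA of 1 control and 1 DSS-treated organoid culture was sequenced from stranded libraries. The deposited values are raw counts of reads per gene, which the authors left without normalization. The submitters' processing notes name HISAT2 and StringTie, and the versions, counting program and genome build are not given in the sources used here. The files given for single samples are titled FPKM but hold the same counts for all 19294 genes. Of the transcript accessions in the table, 94.0% are in the RefSeq annotation of GRCm38.p6.

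Library sizes were multiplied by TMM factors of 1.09 (control) and 0.915 (DSS), computed in R 4.3.3 by edgeR 4.0.16. Log2 ratios had no prior count, and no model was fitted since each group is 1 library. Calculations were run with pandas 2.3.3, scipy 1.17.1 and numpy 2.4.6 in Python 3.11.15, were tested on simulated data and were plotted with matplotlib 3.10.9. As alternatives, other scalings (total counts, upper quartile, DESeq2 1.42.0), thinning of the control library, other count minimums and a prior count of 2 were tried. The members and lists were chosen with earlier results of these data known.

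Named genes were the members, relatives with 10 counts or more in either library, the 3 largest absolute log2 ratios of each list at 50 counts or more, and the 5 genes nearest to Muc2. Foxa1, Foxa2, Hspa5, Xbp1, Muc6, Muc1, Muc20, Klk1b21, Spink2, the markers not listed and the chromosomal neighbours were chosen outside this rule after values were seen. So were Lgr5 and Lyz1, named for comparison with the paper's RT-PCR, and St6galnac1. Exon lengths, Oit1 as a member, the sum without Fcgbp, the Woolf differences after thinning and the shared 50-base windows were added after seeing the data. Promoter sequences came from RefSeq and transcript lengths from GENCODE vM21.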

Additional observations from a re-analysis of the deposited data

How the results depend on the processing

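No paired analysis was possible because each group is 1 library, and no library could be left out. The members' median log2 ratio of 3.77 was 3.52 with total counts, 3.86 with upper quartile factors and 3.16 with Oit1 as a member. The log2 ratio of their summed counts, 3.76, was 3.50 with total counts, 3.85 with upper quartile factors, 3.71 with Oit1 and 3.74 without Fcgbp. The number of members at a log2 ratio of 2 or more was 7, and was 6 with total counts, where Agr2 was at 1.91. It was 8 with the line at 1 and 5 with the line at 3, past which 19.3% and 3.06% of all genes lay.

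With total counts, 0 ER genes were at 2 or more in place of 1, as for other secreted mucins and for gastric markers (0 in place of 1 each, through Muc6), and 2 tuft markers in place of 1 were at -2 or less. Muc6 was also below 2 with a prior count of 2 and absent under a minimum of 50 counts, which left 0 in both lists. For O-glycosylation, 0 genes in place of 1 were at -2 or less with a prior count of 2, with 10 counts required in both libraries or with 50 counts required. Of 70 genes named by the rule, Klk1, Capn5 and Fam3a changed sign with total counts, while 0 changed sign under the other scalings, the prior count or thinning. Of 19 genes printed outside that rule, Hspa5, Muc20, Psmc4 and Bag1 changed sign with total counts and Xbp1 with upper quartile factors. Lgr5, Lyz1 and St6galnac1 are not among these 19. After thinning of the control library, 35 of 36 member pairs had an interval on 1 side of 0. Among the members, counting error was widest for Capn9 and then Clca1, and the absence of replicates limits every value.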

Other observations

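The genes next to the members on their chromosomes, taken by position in the RefSeq annotation, did not all move with them. Beside Fcgbp on chromosome 7 lies 9530053A07Rik, for which RefSeq also gives the name FCGBP, and its counts of 331 (control) and 3293 (DSS) gave a log2 ratio of 3.70, beside 3.77 for Fcgbp. On the other side of Fcgbp, the proteasome subunit Psmc4 was at 0.18, and at -0.08 on total counts. Agr2 lies on chromosome 12 between Agr3, at 1.53, and the tetraspanin Tspan13, at 1.76 with 5081 and 13192 counts. Tff3 lies on chromosome 17 between the lipid transporter Abcg1, at 3.02 with 16 and 99 counts, and Tff2, at -1.005. Zg16, at 8.64, lies on chromosome 7 between the mitotic kinesin Kif22, at -2.74 with 3321 and 380 counts, and AI467606, at 2.85 with 4 and 22 counts. Spink4 lies on chromosome 4 between the galactosyltransferase B4galt1, at 0.98, and Bag1, at 0.12 and on total counts at -0.14. Capn9, at 5.48, lies on chromosome 8 between Agt, the gene of angiotensinogen, at 0.66 with 90 and 109 counts, and 2310022B05Rik at -0.37.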
